A study of Mus musculus with 2 samples.

Results

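Rab GTPases are the small GTP-binding proteins that mark the membranes of the secretory and endocytic pathways. The Rab genes were taken as every gene spot of the array whose gene name was Rab followed by a number with an optional letter, which left out proteins that bind Rabs, such as the Rab11fip genes. The rule found 55 Rab genes, measured by 110 probes in 119 spots, of 27968 genes, 41174 probes and 43379 gene spots in all. Of the 55 genes, 43 had a probe well above background on both arrays in at least 1 channel and were tested, among 11748 such genes on the array. The rule used gene names only and no measured value.

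The study compared primary epidermal keratinocytes of K14-caSmad1 mice, whose transgene codes for constitutively active Smad1, a transcription factor of BMP signalling, with those of wild type mice, both FVB/NJ and at day 20 after birth. K14 is the name of the keratin 14 gene, whose promoter is in common use to drive transgenes in the basal layer of the epidermis and in the outer root sheath of the hair follicle. The labels describe 2 arrays as biological replicates, and each carried wild type RNA in Cy3 and K14-caSmad1 RNA in Cy5. With 0 dye swaps, the dye and the genotype cannot be told apart. The labels do not give how many animals gave RNA to an array, so the spread between the 2 arrays may be technical, and no error between animals can be given. Each value below is therefore shown for replicate 1 and replicate 2. Signals are the scanner's processed intensities, while the log2 ratios were computed here by other steps, described at the end. The ratio of 2 printed signals therefore need not equal the printed log2 ratio.

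A Rab protein works as a switch that is on when it binds GTP and off when it binds GDP. A lipid anchor, added by Rab geranylgeranyl transferase with an escort protein, holds it in a membrane, and GDI proteins take the inactive form back to the cytosol. Exchange factors switch Rabs on, GTPase-activating proteins switch them off, and effectors such as tethers and motor adaptors bind the active form. In keratinocytes this traffic carries adhesion molecules and receptors, delivers lamellar granules, and serves the uptake of melanosomes from melanocytes.

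Rab proteins resemble each other closely, so the probes were first compared as sequences. Over 5919 pairs of probes for different Rab genes, the longest run of bases shared on the same strand was 14 bases, and 2 pairs shared 12 bases or more. Those pairs involve the probes for Rab25, Rab9 and Rab11b, printed here 5′ to 3′ with the run shared with another of them in capitals, to show how much of the 60 bases is common. They lie on the minus strand of mm9, the build named in the file headers, at chr3:88346274-88346663 (Rab25), chrX:162895731-162895790 (Rab9) and chr17:33884751-33885506 (Rab11b). The Rab25 and Rab11b probes extend over 390 and 756 bases of the genome, more than their own length.
Rab25: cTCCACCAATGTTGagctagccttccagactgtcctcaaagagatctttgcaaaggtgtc
Rab9: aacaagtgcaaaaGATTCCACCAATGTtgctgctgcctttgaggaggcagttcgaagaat
Rab11b: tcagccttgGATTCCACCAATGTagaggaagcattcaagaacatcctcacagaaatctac
Outside this short common stretch the printed sequences differ, and their values differ too: Rab25 and Rab9 had mean log2 ratios of -1.26 and -0.46. For Rab11b, a brighter probe than the one printed here gave the value used below, 0.07.

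Of 43 tested Rab genes, 3 had a measured ratio at least 2-fold higher in K14-caSmad1 than in wild type on each array, against 4.09% of all genes tested, and 8 had one at least 2-fold lower, against 9.81%. The 3 higher genes are 6.98% of the tested Rab genes and the 8 lower genes 18.6%. All counts past a fold, here and below, use measured ratios, also for genes dim in 1 channel, for which only a bound holds. Among the 40 Rab genes above background in both channels on both arrays, 5 were at least 2-fold lower, against 8.62% of all such genes, and 3 were higher, against 4.61%. At 1.5-fold, 9 Rab genes were higher and 9 lower, 20.9% each, against 13.2% and 19.5% of all genes. The median log2 ratio of K14-caSmad1 over wild type was 0.01 over the Rab genes and -0.03 over all genes tested. The quartiles lay at -0.46 and 0.48 for the Rab genes and at -0.47 and 0.35 for all genes, so the Rab genes as a group did not shift one way: 22 had a mean above 0 and 21 a mean below it. With limma (moderated test of the mean log2 ratio against 0, two-sided, Benjamini-Hochberg adjusted p under 0.05 over all genes tested), 18 Rab genes were called higher and 20 lower, against 40.8% higher and 46.3% lower of all genes. Together these are 88.4% of the Rab genes against 87.1% of all genes. With 2 arrays on 1 slide this test reads how well the arrays repeat, so the fold on each array, not the p-value, is used to separate the genes below. The 5 Rab genes that limma did not call were Rab4a, Rab11b, Rab21, Rab43 and Rab35.

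**Figure D1:**
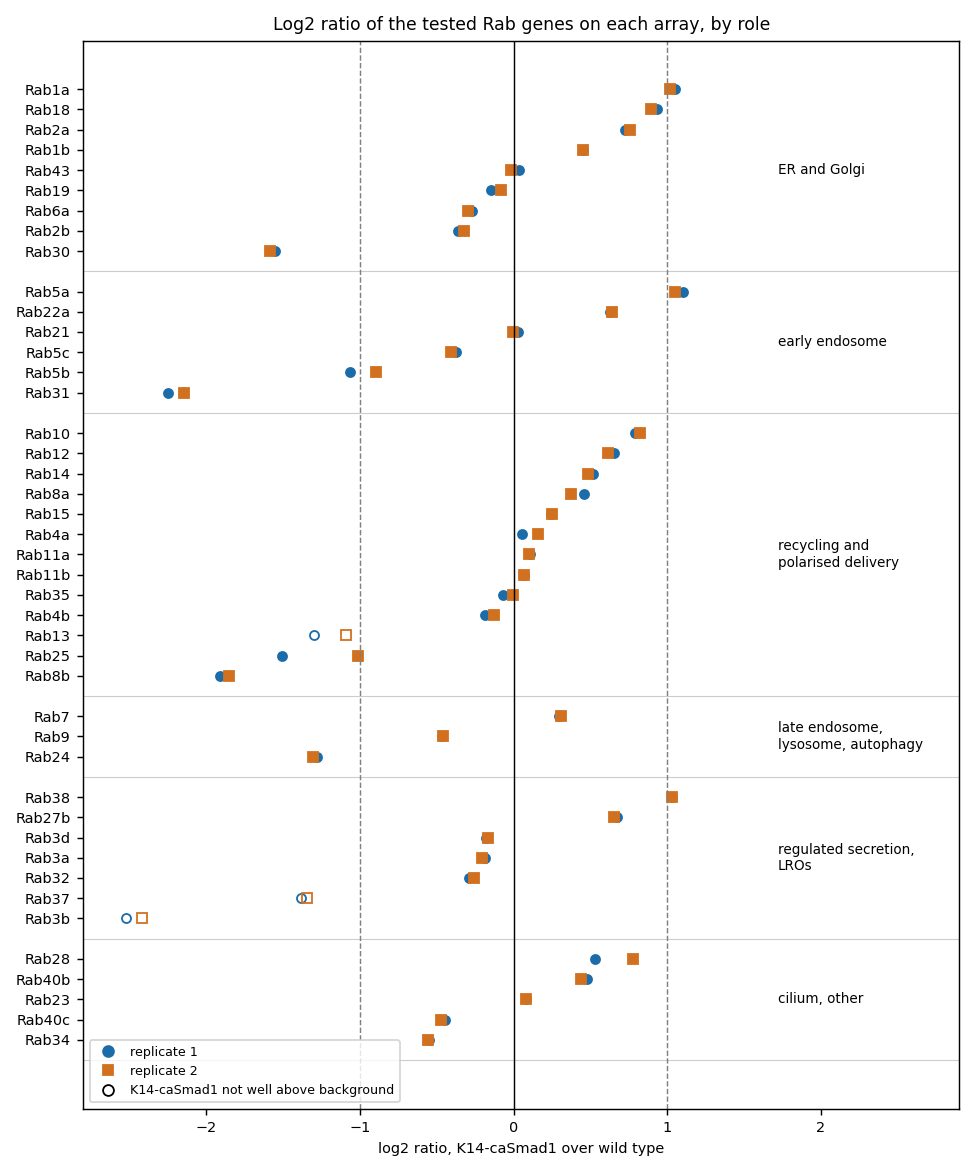
Log2 ratio of K14-caSmad1 over wild type (x axis) of the 43 tested Rab genes (y axis, grouped by role), with circles for replicate 1, squares for replicate 2 and dashed lines at 2-fold. Open symbols mark the 3 genes whose probe was not well above background in K14-caSmad1. High and low genes stand side by side in the ER and Golgi, early endosome and regulated secretion groups.

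Among the Rabs of the ER and Golgi, 9 of 12 genes were tested, with a median log2 ratio of 0.01. Rab1a, which serves transport from the ER to the Golgi, had processed signals of 6383 and 6861 in wild type and 13119 and 14288 in K14-caSmad1 on replicates 1 and 2. Both K14-caSmad1 signals lay above both wild type signals, and the log2 ratios were 1.05 and 1.02, a mean of 2.05-fold higher. Rab30, a Golgi Rab, went the other way, with 1532 and 1527 in wild type and 330 and 343 in K14-caSmad1. Its log2 ratios of -1.55 and -1.58 make a mean of 2.97-fold lower, and the channels did not overlap. For genes singled out by their ratio, channels that do not overlap, here and below, are a description and add no support. Rab18, found on the ER and on lipid droplets, had log2 ratios of 0.93 and 0.90, which puts it just outside 2-fold, and Rab1a lay just inside. Rab2a, which acts between the Golgi and the ER, had 0.72 and 0.76 at its brightest probe, but its other probe was lower in K14-caSmad1, as described below. Rab1b had 0.45 and 0.45. The remaining tested genes of the group, Rab43, Rab19, Rab6a and Rab2b, had means between -0.34 and 0.01.

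Rab5a and Rab31 stood at opposite ends among the 6 tested of 7 Rabs of the early endosome, whose median was -0.19. Rab5a, the Rab of early endosome fusion, had signals of 8651 and 8942 in wild type and 18886 and 18885 in K14-caSmad1. The log2 ratios were 1.10 and 1.05, or 2.11-fold higher. Its probe was printed in 10 spots per array, which shows the error within an array: 9 spots on replicate 1 had a mean of 1.10 ± 0.0169 (SD) after 1 outlier spot was left out, and 10 spots on replicate 2 had a mean of 1.05 ± 0.0187 (SD). The spots ranged from 1.07 to 1.13 and from 1.00 to 1.06, so the difference from 0 is far larger than the spread between spots. That spread holds neither differences between animals nor dye bias, so it adds no support for a change between genotypes.

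Rab31, which moves between the trans-Golgi and endosomes, had 3918 and 3091 in wild type and 623 and 522 in K14-caSmad1. Its log2 ratios were -2.25 and -2.14, a mean of 4.58-fold lower. This is the lowest ratio of any Rab gene measured above background in both channels. Rab5b, a close relative of Rab5a, had 761 and 528 in wild type and 237 and 186 in K14-caSmad1, with log2 ratios of -1.07 and -0.89. It falls just outside 2-fold on replicate 2. Rab22a, an endosomal Rab related to Rab31, had 460 and 433 in wild type and 947 and 901 in K14-caSmad1, with log2 ratios of 0.63 and 0.64. Another Rab22a probe, not tested, was above background in both channels on replicate 2 only, where its log2 ratio was -0.17. Rab5c had -0.37 and -0.41 and Rab21, which binds integrins, had 0.03 and -0.00.

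**Figure D2:**
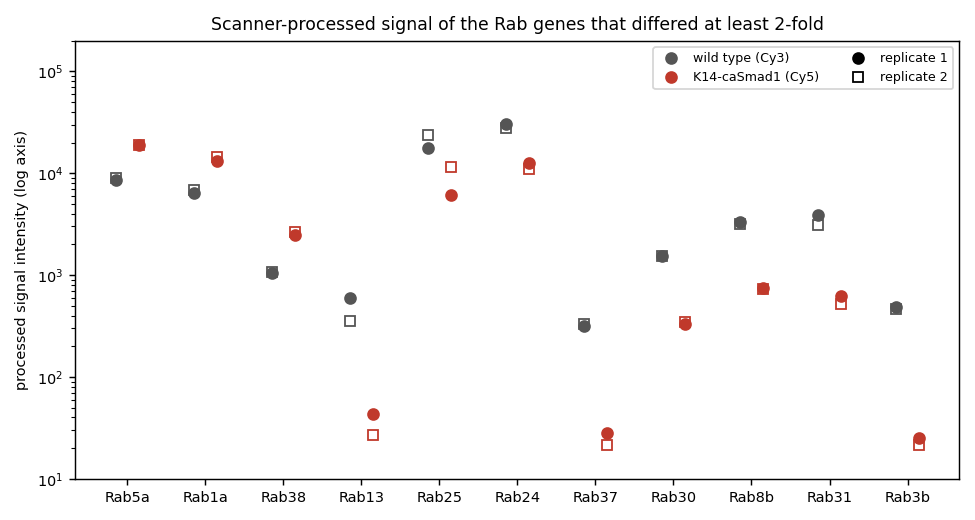
Processed signal intensity (y axis, log scale) of the 11 Rab genes whose measured ratio differed at least 2-fold on each array, in wild type (grey, Cy3) and K14-caSmad1 (red, Cy5), with filled circles for replicate 1 and open squares for replicate 2. The channels do not overlap for any of the 11 genes, which their choice by the ratio on each array makes likely, so it adds no support. Rab13, Rab37 and Rab3b have K14-caSmad1 signals between 21.3 and 42.8, not well above background.

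The Rabs of recycling and of polarised delivery to the plasma membrane were the largest group, with 13 of 14 genes tested and a median of 0.10. By measured ratio 0 were 2-fold higher and 3 were 2-fold lower: Rab8b and Rab25, which were above background in both channels, and Rab13, for which only a bound below 2-fold holds. Rab8b, which like Rab8a directs vesicles to the cell surface, had 3344 and 3163 in wild type and 740 and 727 in K14-caSmad1 at its brightest probe, with log2 ratios of -1.91 and -1.85. Rab25, an epithelial relative of Rab11, had 17512 and 23613 in wild type and 6181 and 11625 in K14-caSmad1. Its log2 ratios were -1.51 and -1.01, and the difference of 0.49 between arrays is the largest of any tested Rab gene. Both K14-caSmad1 signals of Rab25 still lay below both wild type signals. Rab13, known for traffic to tight junctions, had 599 and 351 in wild type but was not well above background in K14-caSmad1, with signals of 42.8 and 27.2. The other Rab13 probe was not above background in either channel on either array. At its tested probe, Rab13 was at least 1.69-fold lower, with measured log2 ratios of -1.30 and -1.09.

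Such a bound sets the mean of the bright channel against, on each array, the higher of the dim probe's own level and the lowest signal among probes well above background. All bounds here are open to dye bias, and they hold only for the processing used here. With other processing, Rab13 had a mean log2 ratio as small as -0.64, a smaller change than its bound.

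Rab10, which acts in secretion to the basolateral surface, had 2863 and 7026 in wild type and 5710 and 12823 in K14-caSmad1 at its brightest probe. Here the channels overlap across arrays, because all signals of this probe were higher on replicate 2, while the ratios within the arrays, 0.79 and 0.82, repeated. Rab12, a Rab of recycling endosomes, had 508 and 559 in wild type and 1041 and 1066 in K14-caSmad1, with log2 ratios of 0.65 and 0.62. Rab14 had 0.51 and 0.48 and Rab8a 0.46 and 0.37. At their brightest probes, the main recycling Rabs stayed near the middle of all genes. Rab11a had 0.10 and 0.10, Rab11b 0.07 and 0.07, Rab4a 0.05 and 0.16, and Rab35 -0.07 and -0.01. The other tested probes of Rab11a had 1.11 and 1.19, and 0.33 and 0.17. The mm9 position listed for the brightest Rab11a probe spans 17 bases, fewer than its 60. Rab15 had 0.24 and 0.25 and Rab4b -0.19 and -0.13.

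Of the 6 Rabs of late endosomes, lysosomes and autophagy, 3 were tested, with a median of -0.46. Rab24, a Rab of autophagy, had processed signals of 30767 and 27569 in wild type and 12558 and 10915 in K14-caSmad1, with no overlap. Its log2 ratios were -1.28 and -1.31, a mean of 2.45-fold lower. Its probe, on the minus strand of mm9 at chr13:55421675-55421734, is shown because Rab24 is the gene of this group past 2-fold.
Rab24: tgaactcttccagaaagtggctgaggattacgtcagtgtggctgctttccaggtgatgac
Rab7, the Rab of late endosomes and lysosomes, had 3420 and 5357 in wild type and 4677 and 6913 in K14-caSmad1, with log2 ratios of 0.29 and 0.31, and Rab9, which recycles receptors to the Golgi, had -0.47 and -0.46. The 3 genes did not move together: Rab7 was above 0 and Rab9 and Rab24 below it on both arrays.

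Regulated secretion and lysosome-related organelles, which include melanosomes, gave 7 tested genes of 10, with a median of -0.20. Rab38, which with Rab32 delivers pigment enzymes to melanosomes, had 1048 and 1063 in wild type and 2486 and 2644 in K14-caSmad1. Its log2 ratios were 1.03 and 1.03, a mean of 2.04-fold higher. Its relative Rab32 had 690 and 616 in wild type and 542 and 513 in K14-caSmad1, with log2 ratios of -0.29 and -0.26. Rab27b, a Rab of secretory granules, had 520 and 560 in wild type and 1007 and 1100 in K14-caSmad1, with log2 ratios of 0.67 and 0.65, while neither of the probes for Rab27a, the melanosome Rab that binds Mlph and Myo5a, was above background in any channel.

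Rab3b and Rab37, both Rabs of regulated exocytosis, were above background in wild type only. Rab3b had 487 and 466 in wild type and 25.0 and 21.3 in K14-caSmad1, where it was not well above background. It was at least 2.06-fold lower, with measured log2 ratios of -2.53 and -2.42. Rab37 had 316 and 331 in wild type and 28.1 and 21.4 in K14-caSmad1, again not well above background there. It was at least 1.62-fold lower, with measured log2 ratios of -1.38 and -1.34. Its other probe, dim in the same channel, had -0.53 and -0.80, and stands for the gene when replicate 2 is left out. Of the 8 genes counted as 2-fold lower, 5 were thus measured in both channels, and 3 (Rab13, Rab37, Rab3b) have a bound, which reaches 2-fold for Rab3b alone. Rab3a and Rab3d had means of -0.20 and -0.18.

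In the remaining group, with Rabs of cilia and signalling, 5 of 6 genes were tested, none was past 2-fold, and the median was 0.08. Rab28, a ciliary Rab, had 204 and 496 in wild type and 537 and 1115 in K14-caSmad1, with log2 ratios of 0.53 and 0.78. Its ratio on replicate 1 is below 1.5-fold, although both K14-caSmad1 signals exceed both wild type signals. With the scanner's processed signals, the log2 ratios of Rab28 were 1.39 and 1.17. Rab34, which acts in cilium formation, had 1263 and 1829 in wild type and 829 and 1207 in K14-caSmad1, with log2 ratios of -0.55 and -0.56. Rab40b and Rab40c, which carry a SOCS box, differed in sign, with means of 0.46 and -0.46.

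The 12 Rab genes that were not tested were Rab3c, Rab6b, Rab9b, Rab17, Rab20, Rab26, Rab27a, Rab33a, Rab33b, Rab36, Rab39 and Rab39b. Rab20 was above background on 1 array in wild type and Rab33b on 1 array in each channel. The other 10 were not above background on any array, which bounds nothing about low levels.

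Close relatives were compared with each other. Of 15 pairs within a subfamily, 13 had both genes above background in both channels, and 8 of these differed at least 2-fold in their ratio on each array, at the brightest probe of each gene. The other 2 pairs set Rab3a and Rab3d against Rab3b, for which only a bound holds, so no difference is given. The count is a description: no such share was computed for other pairs of genes, and Rab5a and Rab25 each stand in more than 1 pair past 2-fold. Rab22a exceeded Rab31 by 2.87 and 2.78 on the log2 scale, Rab8a exceeded Rab8b by 2.37 and 2.22, and Rab5a exceeded Rab5b by 2.17 and 1.94. These are differences between ratios, each taken within 1 gene, and not between levels. Rab5a also exceeded Rab5c by 1.47 and 1.45, Rab38 exceeded Rab32 by 1.32 and 1.29, and Rab11a exceeded Rab25 by 1.61 and 1.11. Rab11a and Rab11b differed by 0.03 on each array at their brightest probes, which is less than the SD of 0.0946 between arrays over 12287 probes of all genes, but over all 9 pairs of their tested probes the difference ranged up to 1.25. Over 11 other ways of processing the data, 12 of the 13 pairs kept their sign in each; the exception was Rab11a against Rab11b, which turned in 4. The choice of probe turned the sign in some pairs. Over all pairs of tested probes, Rab8a minus Rab8b ranged from -0.27 to 2.30, Rab2a minus Rab2b from -0.09 to 1.08 and Rab1a minus Rab1b from -0.16 to 1.36. Rab5a minus Rab5b, with 2 pairs of probes, stayed between 1.83 and 2.05, against 1.74 to 2.70 over the other ways of processing. Where each gene had 1 tested probe, as for Rab22a and Rab31, the choice among tested probes could not be assessed. Some of the other ways of processing also act through the choice of probe.

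**Figure D3:**
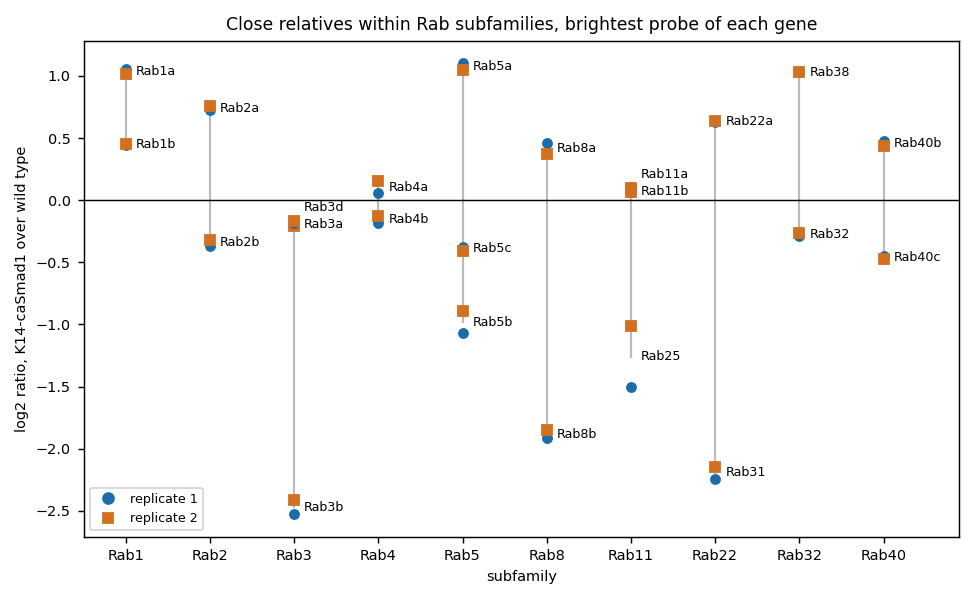
Log2 ratio of K14-caSmad1 over wild type (y axis) of close relatives in 10 Rab subfamilies (x axis), with circles for replicate 1, squares for replicate 2 and a grey line between the lowest and highest mean. The Rab22 and Rab8 pairs, measured above background in both channels, lie 2.83 and 2.30 apart, and Rab11a and Rab11b, at their brightest probes, lie together. The point for Rab3b was not well above background in K14-caSmad1.

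Probes for 1 gene did not always give 1 answer. Of the 17 Rab genes with more than 1 tested probe, 9 had probes of opposite sign (52.9%), against 35.1% of the 2823 such genes on the array. The spread between probes exceeded 0.5 in 11, a count for which no share over all genes was computed. No Rab gene had 1 probe below -0.5 and another above 0.5, against 2.48% of all such genes. Over the 65 tested Rab probes the SD of the difference between arrays was 0.111 and the largest difference 0.49, so most of these spreads between probes exceed the usual spread between arrays. Single probes repeated less well: the second probe of Rab23 had -0.93 and -1.29 and that of Rab6a -0.33 and -0.54.

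Rab2a and Rab10 are among the genes with probes of opposite sign, and their probes are printed to show that they sample different parts of the gene. Rab2a probe 1 lies on the plus strand of mm9 at chr4:8505117-8505176 and has an open reading frame over its whole length. Probe 2, of which the first 30 of 60 bases are given, lies 29215 bases downstream at chr4:8534332-8534391.
Rab2a probe 1: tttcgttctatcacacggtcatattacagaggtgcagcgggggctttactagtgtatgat
Rab2a probe 2: tgtgttaacctgttttaatgccaaaagcta
Probe 1 gave -0.42 and -0.45 and probe 2 gave 0.72 and 0.76. Both were bright, with wild type signals of 6767 and 6768 at probe 1 and 3807 and 4042 at probe 2, so which one stands for the gene decides its sign: with the scanner's processed signals, probe 1 was the brighter, and Rab2a was at -0.36.

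Rab10 probes 1 and 2 lie on the minus strand of mm9 at chr12:3252628-3252687 and chr12:3249867-3252667 and share 40 bases, in capitals. Probe 3, with its first 30 bases given, lies 4870 bases downstream of probe 1 at chr12:3247758-3247817.
Rab10 probe 1: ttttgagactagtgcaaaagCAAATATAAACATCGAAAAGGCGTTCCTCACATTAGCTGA
Rab10 probe 2: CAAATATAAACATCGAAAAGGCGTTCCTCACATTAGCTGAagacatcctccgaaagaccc
Rab10 probe 3: gactgacagttttgttgtttgcataattat
The overlapping probes were alike, with -0.08 and -0.06 at probe 1 and -0.21 and -0.19 at probe 2, and of the 3 only probe 3 was higher, with 0.79 and 0.82. Without replicate 2, probe 2 was the brightest and Rab10 was at -0.21.

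Rab8b has 3 tested probes on the minus strand of mm9, printed from the most upstream, at chr9:66695139-66695198, to those 1100 and 2339 bases further downstream, at chr9:66694039-66694098 and chr9:66692800-66692859. The first 30 bases of each are given.
Rab8b probe 1: actgagcactttagtggcataaagttctac
Rab8b probe 2: gcaggcacttgtaccttaagatggatgtgg
Rab8b probe 3: gtgaaatgtactgtaactaagtagcatgtg
Their log2 ratios were -1.91 and -1.85, then -1.28 and -1.26, then -0.01 and -0.06. Wild type signals were 3344 and 3163 at probe 1, 1381 and 1395 at probe 2, and 460 and 430 at probe 3. The low value of Rab8b therefore rests on 2 of its 3 probes. Among the other genes, Rab11a had 0.10, 0.25 and 1.15 at its 3 probes, and the lowest of these was the brightest. Rab1a had 1.03 and 0.29 at probes 1182 bases apart, and Rab5a had 1.07 and 0.85, so Rab5a was higher at each probe. Rab23, an inhibitor of Hedgehog signalling, had 0.08 at its brightest probe and -1.11 at the other, which was not above background in K14-caSmad1; without replicate 1 the latter was the brighter, and Rab23 was at -1.29.

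**Figure D4:**
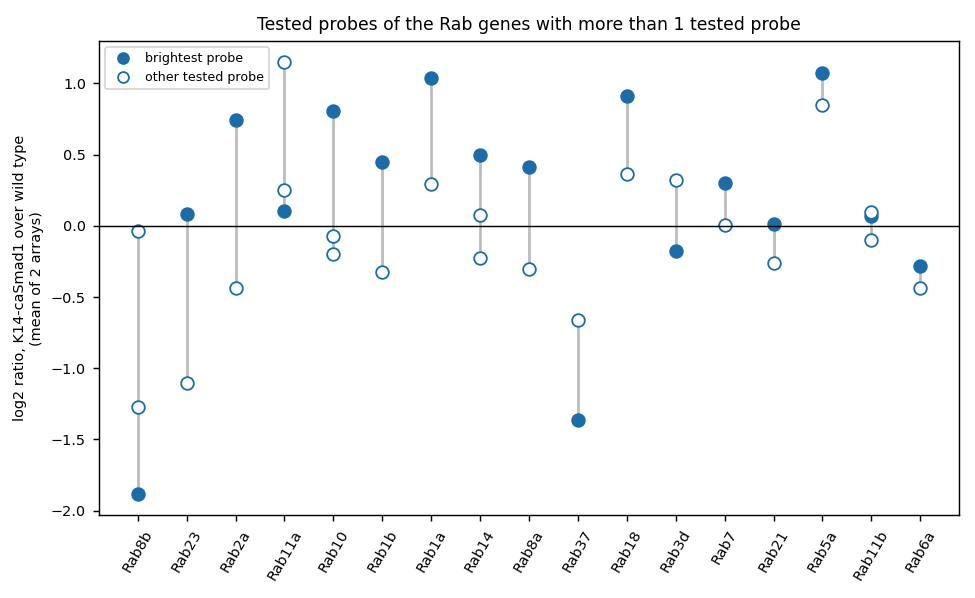
Mean log2 ratio over 2 arrays (y axis) of each tested probe of the 17 Rab genes with more than 1 tested probe (x axis, ordered by spread), with filled points for the brightest probe and a line joining the lowest and highest. Rab8b has the widest spread, from -1.88 to -0.04, and in 9 genes the line crosses 0.

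Genes that act on Rabs were described with 4 lists. Of the machinery that anchors and recycles Rabs, all 12 genes on the list were tested, 0 were past 2-fold either way, and the median was 0.13. Rabggtb, the catalytic subunit of Rab geranylgeranyl transferase, had log2 ratios of 0.71 and 0.73, while Rabggta, its partner subunit, had -0.53 and -0.61. By limma, with p adjusted over all genes tested, 7 genes were higher and 5 lower.

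Among exchange factors, 30 of 42 were tested, 0 were 2-fold higher and 3 were 2-fold lower, with a median of -0.20, and limma called 10 higher and 16 lower. Rab3ip, also called Rabin8, which switches on Rab8, had -3.21 and -3.27 at its brightest probe and a mean of -1.11 at its other probe. Rgp1, a subunit of the exchange factor of Rab6, had -1.33 and -1.12. Dennd1a, which acts on Rab35, was not well above background in K14-caSmad1 and was at least 2.02-fold lower. Of the Rabs on which these act, Rab8b was lower at its brightest probe, and Rab8a (0.42, and -0.30 at its other probe), Rab6a (-0.28) and Rab35 (-0.04) were within 1.5-fold.

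Among GTPase-activating proteins, 29 of 39 were tested, 1 was 2-fold higher and 1 lower, with a median of -0.31, and limma called 9 higher and 17 lower. Rabgap1l had 1.37 and 1.32. Tbc1d30, which is known to act on Rab8, was not well above background in K14-caSmad1 and was at least 4.19-fold lower. Without background subtraction, Tbc1d30 had a mean log2 ratio of -1.71, a smaller change than this bound. Among effectors, 44 of 61 were tested, 2 were 2-fold higher and 4 lower, with a median of -0.13, and limma called 11 higher and 24 lower. Myo5a, the motor that carries melanosomes and recycling vesicles, had -1.89 and -1.80 at its brightest probe and a mean of -0.33 at the other. Rab11fip5, an effector of Rab11, had -1.79 and -1.87, and Sytl2, an effector of Rab27, had -1.50 and -1.81. Bicd2, the adaptor by which Rab6 vesicles bind dynein, had 1.47 and 1.43. Exph5, named after its value was seen, is among the 4 lower effectors and was dim in K14-caSmad1, so that only a bound below 2-fold holds. The counts past 2-fold stand beside 4.09% higher and 9.81% lower of all genes, the limma counts beside 40.8% higher and 46.3% lower, and the medians of -0.13 to -0.31 beside -0.03. With median centring in place of loess, all genes shift up by 0.25, to a median of 0.22. The medians of the exchange factors and effectors become 0.10 and 0.14, so their sign depends on the scaling. Both stay below the median of all genes under either scaling.

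The RNA came from cells whose other markers also differed. Markers of keratinocytes were present in both channels, 11 of 12 being tested, with a median of 0.73 and 5 at least 2-fold higher, among them Krt1 (1.74 and 1.86), Krt5 (1.49 and 1.91) and Trp63 (1.71 and 1.68), and with summed processed signals of 332367 to 342455 in wild type and 549757 to 603989 in K14-caSmad1. The other probe of Trp63 had a mean of -0.78. Named after their values were seen, Cdh1 was at least 1.34-fold lower and dim in K14-caSmad1, and at their brightest probes Sfn had -0.74 and -0.75 and Krt10 had 0.01 and 0.03. The other probe of Krt10 had a mean of 2.29, and the 3 tested probes of Sfn had means from -1.92 to -0.40. Dsg3 was not above background. All 11 tested markers of the hair shaft were at least 2-fold lower, with a median of -4.09 and summed signals of 1536510 to 1585170 in wild type and 65823 to 65964 in K14-caSmad1. Krt33a had -5.15 and -5.39, Krt86 -5.15 and -5.26, and Krt34 -5.01 and -4.87. The hair shaft markers are thus much lower where Rab31, Rab8b, Rab30, Rab25 and Rab24 are lower, and their part in the Rab results was not tested. In bulk RNA, fewer cells of a type and less RNA per cell cannot be told apart.

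Markers of melanocytes, cells in which Rab38, Rab32 and Rab27a act on melanosomes, were tested in 9 of 13 cases, with 3 lower at 2-fold, a median of -1.04 and summed signals of 5874 to 5975 in wild type and 1717 to 1935 in K14-caSmad1. Pmel had -1.30 and -1.27, Mitf was at least 1.75-fold lower and Mlana at least 1.91-fold lower, and Tyr, Oca2 and Sox10 were not above background on any array. Rab38 was higher where this list was lower. Markers of Langerhans and T cells had 0 of 10 genes past 2-fold, a median of 0.13 and summed signals of 39053 to 46017 and 53264 to 59447, with Ptprc, Cd3g and Cd207 at means between 0.86 and 0.90. Cd3e was not above background. Endothelial markers were tested in 4 of 10 cases with 0 past 2-fold, a median of -0.66 and summed signals of 1410 to 1563 in wild type and 585 to 751 in K14-caSmad1; Flt1, Vwf and Esam were at least 1.61-fold, 1.86-fold and 1.29-fold lower, and Pecam1, Cdh5, Kdr, Tek, Emcn and Cldn5 were not above background. Of the fibroblast markers, 6 of 10 were tested, 1 was 2-fold higher (Vim, 1.46 and 1.33) and 3 lower, with a median of -0.95, and the summed signals were 17299 to 18353 in wild type and 26582 to 27265 in K14-caSmad1. Col3a1 was at least 3.16-fold and Col1a1 at least 2.41-fold lower, and Lum, Pdgfra, Pdpn and Twist2 were not above background. The part of these lists in the Rab results was not tested either. Of the 2 Smad1 probes on the array, 1 was tested and had 0.28 and 0.26, and whether it detects the transgene's RNA is not given in the sources used here.

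Processing moved many Rab genes by more than their arrays differed, and median centring did so for most of them. Rab5a ranged from 0.96 to 1.33 and Rab24 from -1.31 to -1.05 over the alternatives, with their sign unchanged. Rab31 ranged from -2.61 to -1.74, Rab8b from -2.15 to -1.06 and Rab30 from -2.19 to -1.05. The 3 genes not above background in K14-caSmad1 moved most: Rab37 ranged from -3.72 to -0.53, Rab13 from -3.75 to -0.64 and Rab3b from -4.37 to -1.36. All 11 genes with a measured ratio past 2-fold kept their sign in the alternatives that were run. Under median centring 6 Rab genes changed sign, each with a mean of at most 0.28 in size, and the 2-fold calls over all genes were 57.8% higher, against 29.4% with loess.

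**Figure D5:**
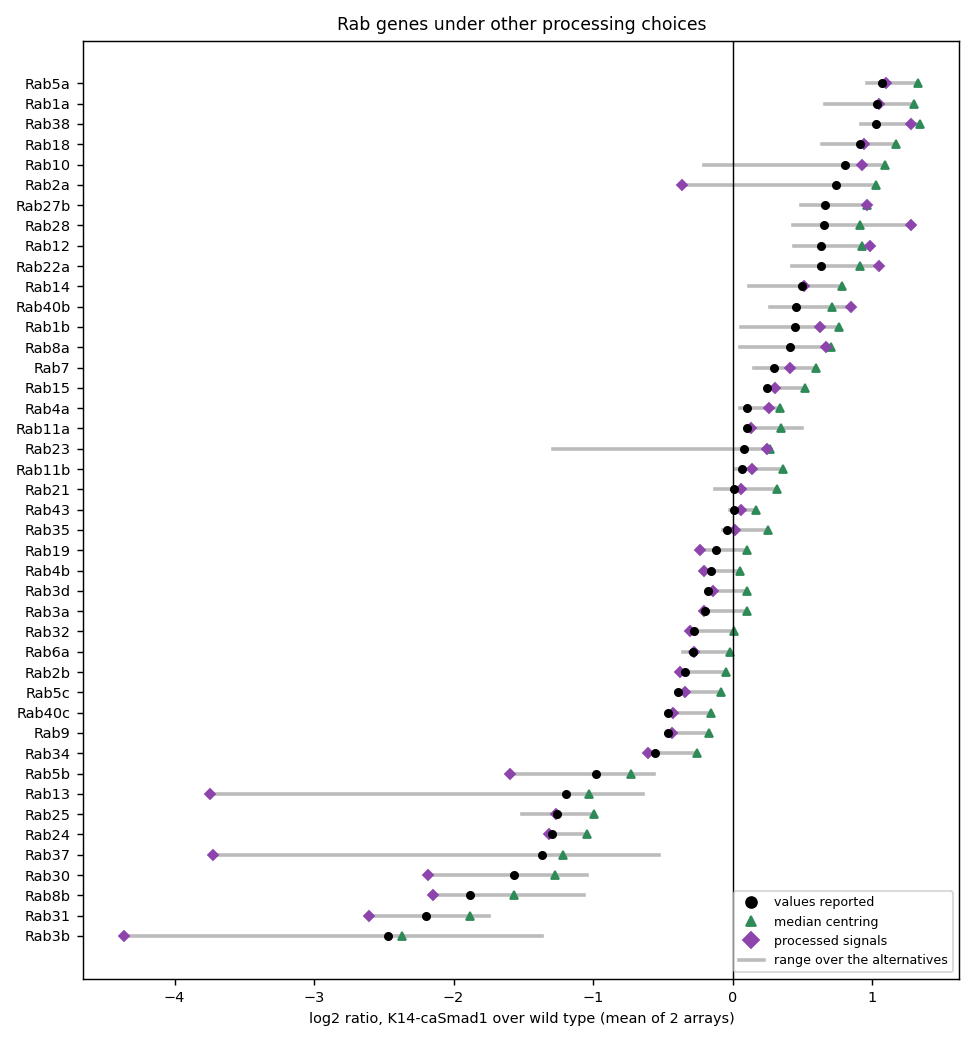
Mean log2 ratio over 2 arrays (x axis) of the 43 tested Rab genes (y axis) as reported (black circles), with median centring (green triangles) and with the scanner's processed signals (purple diamonds); grey bars span all alternatives. Rab5a, Rab24 and Rab31 stay on their side of 0, and the bars of Rab10, Rab2a and Rab23 cross it. So do those of Rab21, Rab43, Rab35, Rab19, Rab4b, Rab3d, Rab3a and Rab32.

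The Smad1 and Smad4 complex is known to bind GC-rich sites, among them the palindrome GGCGCC, which was counted in the 250 bases before each RefSeq start site (GRCm38.p6), where it reads the same on both strands. Of the 55 Rab genes, 46 had such a sequence, and 4 of them held the motif (Rab10, Rab12, Rab24 and Rab3d), or 8.70%, against 10.8% of 27025 genes. The share among Rab genes is thus near that of all genes, and of the 6 genes at least 2-fold lower with a sequence, 1 held it (Rab24), and of the 2 higher genes, 0. Rab24 is printed as the only gene past 2-fold with the motif, in capitals 39 and 9 bases before the start site, from the minus strand of GRCm38.p6, chr13:55321981-55322230.
Rab24 upstream: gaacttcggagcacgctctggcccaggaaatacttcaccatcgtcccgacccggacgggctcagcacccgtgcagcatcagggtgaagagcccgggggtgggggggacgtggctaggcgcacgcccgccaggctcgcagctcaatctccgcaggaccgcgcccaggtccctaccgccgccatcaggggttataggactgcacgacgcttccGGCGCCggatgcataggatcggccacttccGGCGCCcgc
A match of these letters is a description and not a binding site.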

How the data were processed

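Both arrays are Agilent 60-base arrays with 2 channels, and RNA was amplified in 1 round before labelling, per the labels' protocols. Spot intensities and log10 ratios were made by the authors with Agilent Feature Extraction 10.5.1.1, per the file headers. The deposited log10 ratios equal those of the processed intensities to within 0.00397. From the mean intensity and local background, log2 ratios were computed here with limma 3.58.1 (R 4.3.3), by normexp with offset 50 and loess with span 0.3, since the files are deposited by the authors as scanner output. Left out were 36 gene spots of replicate 1 on a non-uniform local background, outlier spots and control spots. Repeated spots of a probe were averaged.

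A probe was tested when well above background on both arrays in either channel, and the brightest probe stood for its gene. Gene names were updated through RefSeq accessions and symbols. Between 33.2% and 37.2% of gene spots were well above background, 0 Rab spots were saturated, and 2 arrays limit the precision. Every tested Rab gene could be named, with the value on each array from 1.5-fold up. Regulators were named up to 4 per list past 2-fold, markers up to 3 per list. Rabggtb and Rabggta, from a list with 0 genes past 2-fold, were named outside this rule. The Rab genes, lists and roles were chosen with earlier results of these data known. The calculation was tested on simulated data.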

Additional observations from a re-analysis of the deposited data

How the results depend on the processing

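The count of Rab genes at least 2-fold higher, 3 here, was 6 with median centring (Rab10, Rab18 and Rab2a were added; 9.44% of all genes), 5 with processed signals and 5 with the deposited table (Rab22a and Rab28 were added; 10.7% and 10.6%), and 1 when a gene's tested probes were averaged (Rab1a and Rab5a were lost; 3.33%). The 8 genes lower became 4 with all spots in normexp (4.02% of all genes), 5 without background subtraction (6.52%) and 5 when both channels had to be above background (8.62%), which leaves out the 3 dim genes. At 1.5-fold, 9 higher became 15 with median centring (24.8% of all genes) and 9 lower became 4 with all spots in normexp (7.30%), where limma called 16 in place of 38 (27.8% of all genes in place of 87.1%). In that setting the fitted background of replicate 1 was -466 (Cy3) and -408 (Cy5) in place of 181 and 569. The median of 0.01 became 0.0436, 0.0505, 0.25, -0.0237, 0.0403 and -0.0378 with all spots in normexp, no background subtraction, median centring, no detection filter, both channels above background and the mean of probes. Without replicate 1 or 2 the counts were 3 to 3, 8 to 9, 8 to 10 and 8 to 10 (2-fold higher and lower, 1.5-fold higher and lower), and the median -0.0680 to -0.0181. Rab37 was at -0.53 without replicate 2. Keeping outlier spots moved no count, and an intensity trend in eBayes moved the limma count by less than 1.5 times. Where no cause is given, the cause was not tested. Over all genes, 2-fold calls were 480 higher and 1152 lower, 1109 and 811 with median centring, 1255 and 1876 with processed signals, 1252 and 1875 with the deposited table, and 303 and 473 with all spots in normexp. No paired analysis was possible because each array holds both groups and gives 1 ratio, so the pairing is already in each value.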
